A study of Mus musculus with 12 samples.

Results

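Core pluripotency genes are those whose proteins hold an embryonic stem cell (ESC) in its undifferentiated state. The set described here was fixed by name and had 10 members among the 51467 genes counted: Pou5f1, Sox2, Nanog, Sall4, Utf1, Dppa2, Dppa3, Dppa4, Dppa5a and L1td1. All of them were found in the data, and all passed the filter on low values (3 or more libraries at 3 CPM or above, CPM being the count scaled to library size), which 14033 genes passed. Dppa3 passed through its wild-type libraries alone, with all 6 of them at the minimum and 0 of the Dgcr8 KO libraries.

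OCT4 (the product of Pou5f1) and SOX2 bind DNA side by side at many ESC enhancers, and NANOG joins them in a network in which each factor acts on its own gene and on those of the others. SALL4 is a zinc finger protein tied to the same network, and UTF1 is a chromatin-associated protein of undifferentiated cells. The Dppa (developmental pluripotency associated) genes share a name rather than a family: DPPA2 and DPPA4 are related SAP-domain proteins that act as a pair, DPPA3 (Stella) protects DNA methylation in the early embryo, and DPPA5A is a KH-domain RNA-binding protein. L1TD1 is an RNA-binding protein derived from the LINE-1 retrotransposon.

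Mouse ESCs were either wild-type, of the V6.5 line, or Dgcr8 KO, and both genotypes were grown in the same medium with serum, LIF and 2i (PD0325901 and CHIR99021). Dgcr8 encodes the RNA-binding partner of Drosha, without which most microRNAs are not made. Every culture received 4-thiouridine (4sU) at 500 uM for 30 min, and its RNA was divided into a captured 4sU fraction (nascent RNA) and an rRNA-depleted fraction (total RNA). Each of the 4 groups held 3 libraries, 12 in all. The Dgcr8 KO cells were a single ESC line made earlier, so an effect of the deletion and a difference between these lines cannot be told apart, and no source names separate derivations, so p-values measure the spread between cultures.

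Libraries held 4593914 to 9295245 counts. Dgcr8 itself was lower in Dgcr8 KO cells, at 648 to 911 counts in the wild-type and 222 to 298 in the KO total libraries (log2 change -1.60, SE 0.08, limma adjusted p = 6.6e-17). Counts over the whole gene did not show which exons the remaining reads came from. The ESC label was checked against 7 ESC markers, whose summed level was 4017 to 4266 CPM in wild-type and 4253 to 4437 CPM in KO total RNA. Pou5f1, Sox2 and Nanog are among them and are also members, so this sum is not independent of the set. The remaining markers, Zfp42, Esrrb, Fgf4 and Tdgf1, had means of 400, 503, 548 and 577 CPM in wild-type total RNA. In KO total RNA their means were 444, 447, 549 and 589 CPM. Markers of other cell types were far lower in total RNA. The 6 endoderm markers summed to 6.56 to 7.93 CPM in wild-type and 6.88 to 7.94 in KO cells, the 4 mesoderm markers to 7.93 to 9.99 and 5.84 to 7.79, the 4 trophoblast markers to 0.488 to 1.16 and 1.13 to 1.30, and the 5 feeder fibroblast markers to 1.86 to 3.43 and 0.564 to 1.30. Neural markers summed to 101 to 109.9 CPM in wild-type and 69.6 to 75.6 in KO cells, most of it from Nes, which fell (log2 change -0.73, limma adjusted p = 2.7e-10). Primed epiblast markers summed to 131 to 144 and 89.2 to 93.4 CPM. Among the latter Otx2 rose by 0.78, while Dnmt3b fell by 0.90 and Pou3f1 by 2.42 on the log2 scale. Pou3f1 passed the filter through wild-type libraries alone. Fgf5, which defines that state, had at most 1 count in any total library. The part of these other cell states in the results below was not tested.

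Sequences are shown first for microRNAs that depend on DGCR8 for their processing and for the places where their seeds could pair with a member. The main microRNAs of mouse ESCs belong to the ESCC (ESC-specific cell cycle) family, and its members printed here share bases 2 to 7. Mature sequences from RefSeq (GRCm38.p6) are printed with bases 2 to 8 in capitals, at chr7:3218968-3218989, chr7:3220691-3220712, chr3:127545275-127545297 (all on the plus strand) and, for a let-7 member, chr13:48538239-48538260 (minus strand):
miR-291a-3p: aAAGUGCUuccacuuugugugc
miR-294-3p: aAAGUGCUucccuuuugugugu
miR-302b-3p: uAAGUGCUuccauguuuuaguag
let-7a-5p: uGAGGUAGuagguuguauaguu

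The hexamer GCACTT, complementary to the ESCC seed, was in the longest annotated 3′ UTR (GENCODE M21) of 0 of 10 members and of 34.0% of the 11816 tested genes with a 3′ UTR. The members' 3′ UTRs were short in several cases: 122 bases for Utf1, 184 for Dppa5a, 221 for Pou5f1, 267 for Dppa3 and 364 for L1td1, against a median of 1202 over the tested genes. Nanog, Sox2, Dppa2 and Sall4 had longer ones, of 1078, 1086, 1012 and 1697 bases. The let-7 match TACCTC was in 1 of 10 members (10%) and in 26.8% of tested genes. That member was Sall4, and its match at base 1083 of the 3′ UTR was an 8mer, pairing with the whole seed and followed by A. The 30 bases around it, on the minus strand of mm10 at chr2:168748929-168748958, are shown with the hexamer in capitals:
Sall4: ctttaatttatcTACCTCaattatctttat

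RefSeq promoter windows (GRCm38, 300 bases around an annotated start, most of them upstream) were at hand for 5 members, Pou5f1, Sox2, Nanog, Utf1 and L1td1. They were searched on both strands for the octamer core ATGCAA, bound by OCT4, and the SOX motif ACAATG. The octamer core was in 10.7% of all 32851 windows and the SOX motif in 12.6%. Among the 7 windows of members, Sox2 held an octamer core, the second window of Pou5f1 held a SOX motif, and both windows of Nanog held each. In Nanog the 2 motifs lay next to each other, separated by a single base, an arrangement with at most 3 bases between them that was searched for after the sites were seen. It occurred in 5 of all windows (0.0152%), and 2 of these were the overlapping windows of Nanog. The stretch lies 74 bases before the earlier of the Nanog starts, at chr6:122707407-122707436 on the plus strand, and is shown with both motifs and the base between them in capitals:
Nanog: agcttcttTTGCATTACAATGtccatggtg

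Levels of different genes were compared only per exon length, as TPM (counts divided by the deposited exon lengths and scaled to the same total in each library). In wild-type total RNA Dppa5a was highest, at 1846 ± 34.4 TPM (SD, n = 3), above 99.8% of the 11884 protein-coding genes tested. Pou5f1 followed at 1151 ± 9.84 TPM, then Nanog at 637 ± 11.6, Sox2 at 451 ± 7.85 and L1td1 at 424 ± 15.1. Sall4 lay at 176 ± 6.17 TPM and Dppa4 at 70.3 ± 4.58. Utf1 (54.8 ± 8.0 TPM) and Dppa2 (45.2 ± 2.73) were the only neighbours in this order whose libraries overlapped. Dppa3 was lowest, at 29.2 ± 0.646 TPM, still above 60.2% of protein-coding genes. The highest member was thus 63.2 times the lowest, and the median member stood at the 96.2th percentile of protein-coding genes.

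In Dgcr8 KO total RNA the order changed at several places. Sox2 reached 609 ± 15.6 TPM beside Nanog at 606 ± 17.7, and their libraries overlapped, whereas in wild-type cells Nanog had been higher. Within each library the Sox2 to Nanog ratio per length was 0.726, 0.705 and 0.691 in wild-type and 1.04, 0.958 and 1.02 in KO total RNA, without overlap. Dppa2, Dppa4 and Utf1 came together at 75 ± 0.216, 72.7 ± 4.39 and 77.4 ± 6.74 TPM. Dppa3 was at 0.914 ± 0.541 TPM, above only 3.86% of protein-coding genes tested.

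In total RNA 4 members rose, 5 fell and 1 (Dppa4) did not pass the test at an adjusted p under 0.05 (limma with voom weights, all 12 libraries in a single model). Over all genes tested, 27.2% were higher and 36.7% lower in Dgcr8 KO cells at the same threshold, so that passing it was common. Under the study's rule, which also asks for an absolute log2 change over 1, Dppa3 alone was called, against 17.2% of all genes tested. Dppa3 passed the filter through wild-type libraries alone, so it had to differ. The median change of the members was -0.12 and that of all genes tested -0.09 on the log2 scale. All KO libraries lay above all wild-type ones for 4 members and below them for 5, which was also so for 29.2% and 39.6% of all genes tested. A lower share of cells that express a gene and less RNA per cell cannot be told apart in these bulk samples.

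**Figure D1:**
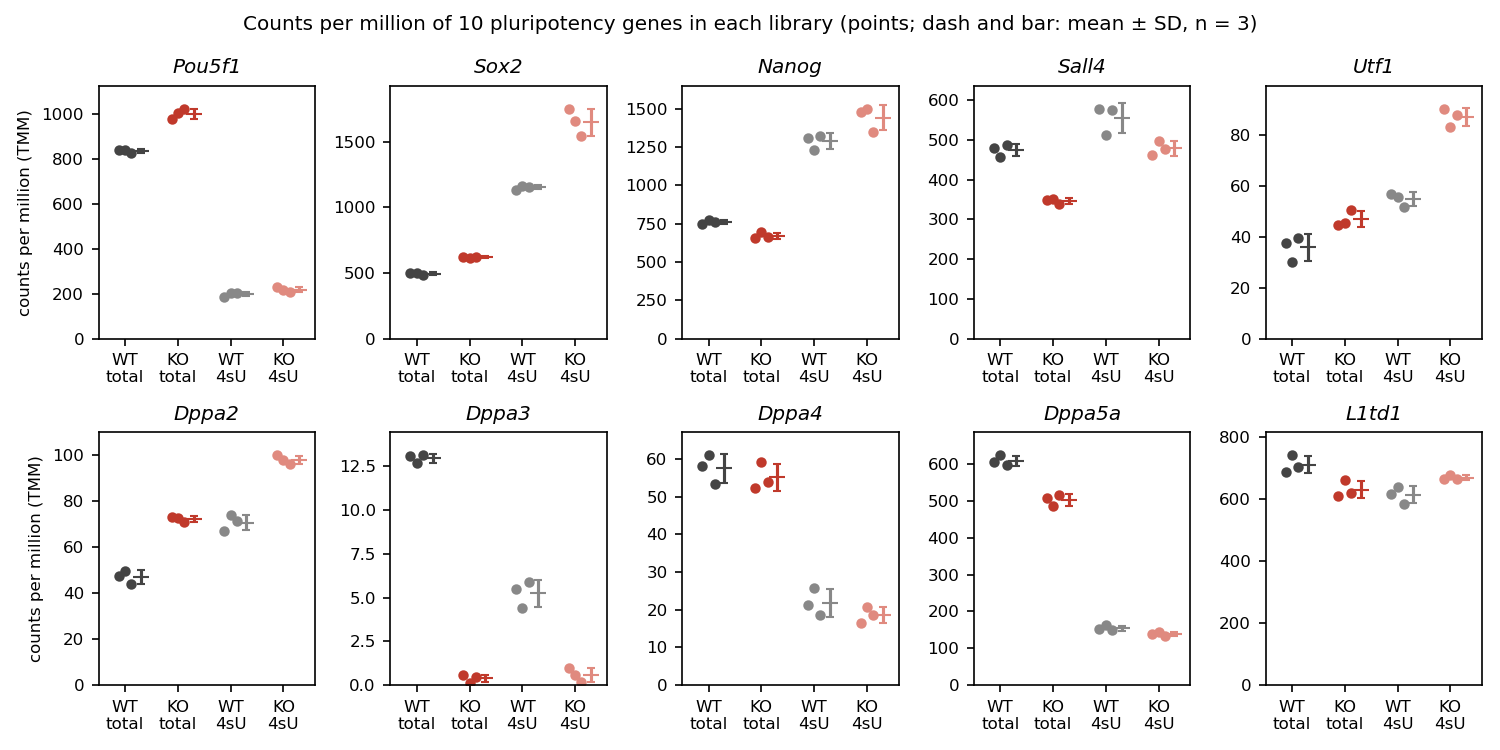
CPM scaled by TMM, a library-size factor that trims extreme genes (vertical axes, each from 0), of the 10 members in every library, by group on the horizontal axes, with wild-type (WT) in grey and Dgcr8 KO in red. Points are libraries, and the dash with its bar is the mean ± SD of 3. Dppa3 fell to 0.376 CPM in KO total RNA from 12.975 in wild-type, while no other member changed by more than the 1.59-fold of Utf1 in nascent RNA.

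Pou5f1, which encodes OCT4, was higher in Dgcr8 KO cells. Its CPM values in total RNA were 842, 839 and 828 in wild-type and 977, 1004 and 1024 in KO libraries. The groups did not overlap, and the rise was 1.2-fold (95% interval 1.13 to 1.27, limma adjusted p = 1.4e-06). In nascent RNA the values were 186, 202 and 205 CPM against 228, 216 and 207, a separation of a few CPM. The nascent change of 0.14 on the log2 scale (SE 0.06) passed narrowly (limma adjusted p = 0.044). It was lost under 4 of the alternative tests or scalings and without wild-type replicate 1 or 2 or KO replicate 1 or 2, where adjusted p ranged from 0.054 to 0.287. An antisense gene, Gm19553, overlaps 291 of the 1362 exon bases of Pou5f1 and was counted apart by strand.

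Sox2 rose more in nascent than in total RNA. Total RNA held 497, 503 and 484 CPM in wild-type and 625, 611 and 622 CPM in KO libraries, a 1.25-fold rise (1.17 to 1.34, limma adjusted p = 2.6e-07). Nascent RNA held 1135, 1168 and 1159 CPM against 1752, 1658 and 1546, a 1.43-fold rise (1.35 to 1.52, limma adjusted p = 4.9e-12). All KO libraries were above all wild-type libraries in both fractions. Sox2 lies within the long noncoding Sox2ot on the same strand, with which it shares no exon bases. Sox2ot itself was at 1.97 CPM in total and 19.95 CPM in nascent wild-type RNA and did not pass the test in total (log2 change 0.59, SE 0.29, adjusted p = 0.074) or nascent RNA (0.10, SE 0.12, adjusted p = 0.52).

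Nanog went in opposite directions in the 2 fractions. In total RNA it had 746, 777 and 763 CPM in wild-type and 657, 695 and 664 CPM in KO libraries, a fall (log2 change -0.18, SE 0.05, limma adjusted p = 7.8e-04). In nascent RNA it had 1312, 1229 and 1323 CPM in wild-type and 1480, 1500 and 1348 CPM in KO libraries, a rise of 0.16 (SE 0.04, limma adjusted p = 0.0022). The groups did not overlap in either fraction, although the lowest KO nascent value was close to the highest wild-type one. With DESeq2 the nascent change was 0.11 and no longer passed (adjusted p = 0.065). Taken relative to the median change of all genes, the total change was -0.09 and did not pass either (adjusted p = 0.088).

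Sall4, the member with the let-7 match printed above, fell in both fractions. Its total CPM values were 480, 458 and 487 in wild-type and 349, 351 and 338 in KO libraries, a fall (log2 change -0.46, SE 0.05, limma adjusted p = 1.5e-09). The nascent values were 578, 513 and 576 CPM against 462, 499 and 476 (log2 change -0.22, SE 0.05, adjusted p = 5.5e-04). Sall4 gave the deepest fall in total RNA of any member but Dppa3. An antisense gene, Gm14261, overlaps 290 bases of its exons and was counted apart by strand, at 0.940 CPM in wild-type total RNA.

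Utf1 rose in both fractions. Its total values were 37.8, 30.0 and 39.7 CPM in wild-type and 44.7, 45.5 and 50.5 CPM in KO libraries, a 1.31-fold rise (1.16 to 1.49, limma adjusted p = 3.2e-04). Nascent RNA rose 1.59-fold (1.41 to 1.79, adjusted p = 8.4e-08), from 56.9, 55.8 and 51.9 CPM to 90.4, 83.2 and 88.1 CPM, which was the steepest nascent rise among the members. Wild-type replicate 2 was the low one in total RNA, and without it the log2 change went from 0.39 to 0.25 (adjusted p = 0.015), and Utf1 rested on 242 to 396 counts per total library.

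Dppa2 and Dppa4 lie head to tail on the plus strand of chromosome 16, 16185 bases apart, and their products act as a pair. Dppa2 rose. Its total CPM values were 47.5, 49.6 and 43.8 in wild-type and 73.0, 72.9 and 70.9 in KO libraries, a 1.54-fold rise (1.40 to 1.70, limma adjusted p = 3.0e-09) and the largest one among the members. In nascent RNA it went from 67.1, 73.8 and 71.3 CPM to 100.0, 97.9 and 96.3 CPM, 1.39-fold (1.26 to 1.54, adjusted p = 9.3e-07).

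Dppa4 did not pass the test in any comparison. It had 58.2, 61.0 and 53.3 CPM in wild-type and 52.4, 59.2 and 53.8 CPM in KO total RNA, and the groups overlapped. The fold was 0.959, with a 95% interval of 0.857 to 1.07, so a rise of the size seen for Dppa2 lay outside that interval. In nascent RNA the fold was 0.870 (0.714 to 1.06) on 83 to 132 counts per library. The per-length ratio of Dppa2 to Dppa4 within each library, which does not depend on scaling between libraries, was 0.642, 0.641 and 0.647 in wild-type and 1.1, 0.971 and 1.04 in KO total RNA. In nascent RNA it was 2.49, 2.26 and 3.04 in wild-type and 4.74, 3.71 and 4.07 in KO libraries. Neither fraction showed an overlap between genotypes.

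Dppa3 was the member that was nearly lost. Its counts were 84, 104 and 113 in wild-type and 5, 1 and 3 in KO total libraries, and 34, 21 and 33 against 5, 3 and 1 in the 4sU libraries. No wild-type library overlapped a KO library. From the summed counts, 301 against 9 in total RNA, the level was 33.8-fold higher in wild-type cells, with an interval of 17.6 to 74.7 that covers counting error only. In nascent RNA the sums were 88 and 9 counts, 9.12-fold (4.59 to 20.6). The fitted log2 changes were -5.03 (SE 0.46, limma adjusted p = 3.9e-11) and -3.18 (SE 0.49, adjusted p = 1.6e-06). These were deeper than those of all but 0.0713% and 0.385% of genes tested. Dppa3 passed the filter through wild-type libraries alone, so it had to differ, and these p-values and ranks are descriptions only.

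Dppa5a and L1td1, both encoding RNA-binding proteins, fell modestly in total RNA. Dppa5a went from 605, 624 and 599 CPM to 508, 485 and 516 CPM, a fall (log2 change -0.28, SE 0.04, limma adjusted p = 1.4e-06). L1td1 went from 688, 740 and 704 CPM to 609, 660 and 620 CPM, a fall by 0.18 (SE 0.04, adjusted p = 8.2e-04). Relative to the median change of all genes, Dppa5a was at -0.18 (adjusted p = 4.4e-04), while L1td1 was at -0.08 and did not pass (adjusted p = 0.10). In nascent RNA they parted. Dppa5a fell by 0.15 (SE 0.06, adjusted p = 0.031), from 152, 162 and 149.96 CPM to 139, 143 and 133 CPM. L1td1 rose by 0.13 (SE 0.05, adjusted p = 0.024), from 617, 639 and 585 CPM to 664, 678 and 665 CPM. Neither nascent call was firm. That of Dppa5a was lost without wild-type replicate 2 or any of the KO replicates (adjusted p 0.051 to 0.182), and also relative to the median change (0.053), by library size only (0.076) and with no filter beyond 1 count (0.158). That of L1td1 was lost without wild-type replicate 1 or 3 or KO replicate 2 (0.064 to 0.144). It was also lost with edgeR, DESeq2, RLE and upper-quartile factors (adjusted p 0.054 to 0.28), where the change was as low as 0.07.

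In nascent RNA as a whole, 6 members rose, 3 fell and 1 did not pass, against 28.3% higher and 28.0% lower over all genes tested. Again Dppa3 alone met the study's rule, which 14.8% of genes met. The median nascent change was 0.13 for the members and -0.02 for all genes tested. The total and nascent comparisons come from the same cultures, so their changes are given side by side and were compared only through the interaction term.

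**Figure D2:**
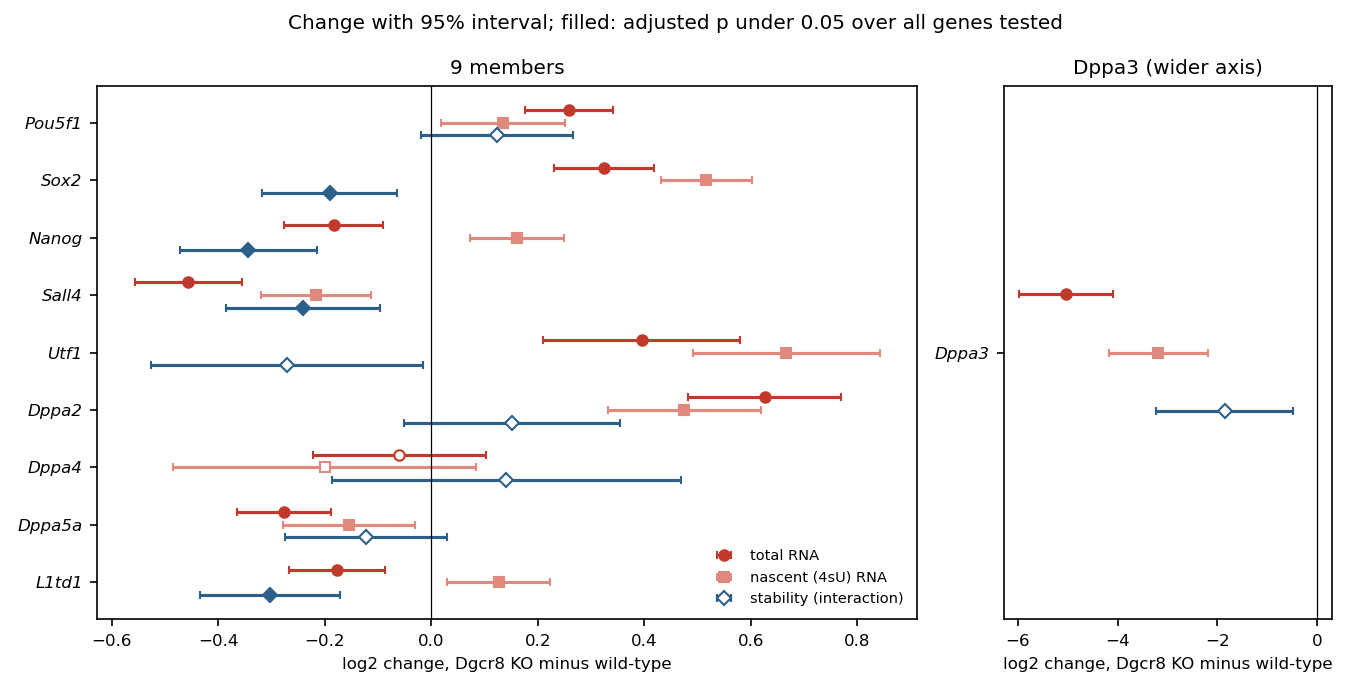
Log2 change in Dgcr8 KO minus wild-type cells (horizontal axes) of each member in total RNA, nascent RNA and stability, with 95% intervals, and with Dppa3 on a wider axis of its own. Filled symbols passed an adjusted p under 0.05 over 14033 genes. Nanog and L1td1 have total and nascent changes on opposite sides of 0, and their stability changes of -0.34 and -0.30 are filled.

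The ratio of total to 4sU signal served as the measure of mRNA stability, since at equal synthesis a longer-lived mRNA builds up more total RNA. Its zero depends on scaling, so it is given relative to the median protein-coding gene. In wild-type cells the ratio differed 9.89-fold between the lowest and the highest member. Pou5f1 was at the high end, 1.77 above the median on the log2 scale (cultures 1.88, 1.72 and 1.71) and above 98.0% of protein-coding genes. Dppa5a lay beside it at 1.67 (1.70, 1.60 and 1.69), above 97.1%. Dppa4 (1.1) and Dppa3 (0.97) were also on the high side.

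Sox2 was at the opposite end, at -1.53 (cultures -1.49, -1.55 and -1.57) and above only 11.2% of protein-coding genes. Nanog lay at -1.07 (cultures -1.12, -1.0 and -1.10), above 19.3%. Utf1 at -0.94, Dppa2 at -0.90 and Sall4 at -0.54 were on the same side, and L1td1 at -0.10 was near the middle. So the 3 genes of the core trio did not share a place in this ratio. Pou5f1 was apart from Sox2 and Nanog by far more than the spread between cultures. Their culture SDs were 0.09, 0.04 and 0.06. Dppa2 and Dppa4, adjacent in the genome, were likewise on opposite sides, with SDs of 0.11 and 0.17. Culture SDs do not measure differences between genes in the capture of labelled RNA. Dppa5a, Dppa3, Pou5f1 and Dppa4, on the high side, had 619, 833, 1362 and 1534 exon bases. Sox2, Nanog, Dppa2, Sall4 and L1td1, which were lower, had 2057, 2242, 1948, 5073 and 3140. Utf1, also lower, had 1227. Whether length or capture set these places was not tested. By this ratio the median member stood at the 39.6th percentile, with single cultures between 38.4 and 40.5. In Dgcr8 KO cells the order of Pou5f1, Dppa5a, Dppa4, L1td1, Sall4, Utf1, Nanog and Sox2 was the same, with Pou5f1 at 1.99 and Sox2 at -1.63. Dppa2 and Dppa3 changed place. Dppa2 was at -0.66, just above Sall4 at -0.69, and Dppa3 was at -0.79 on 9 counts in each KO fraction.

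**Figure D3:**
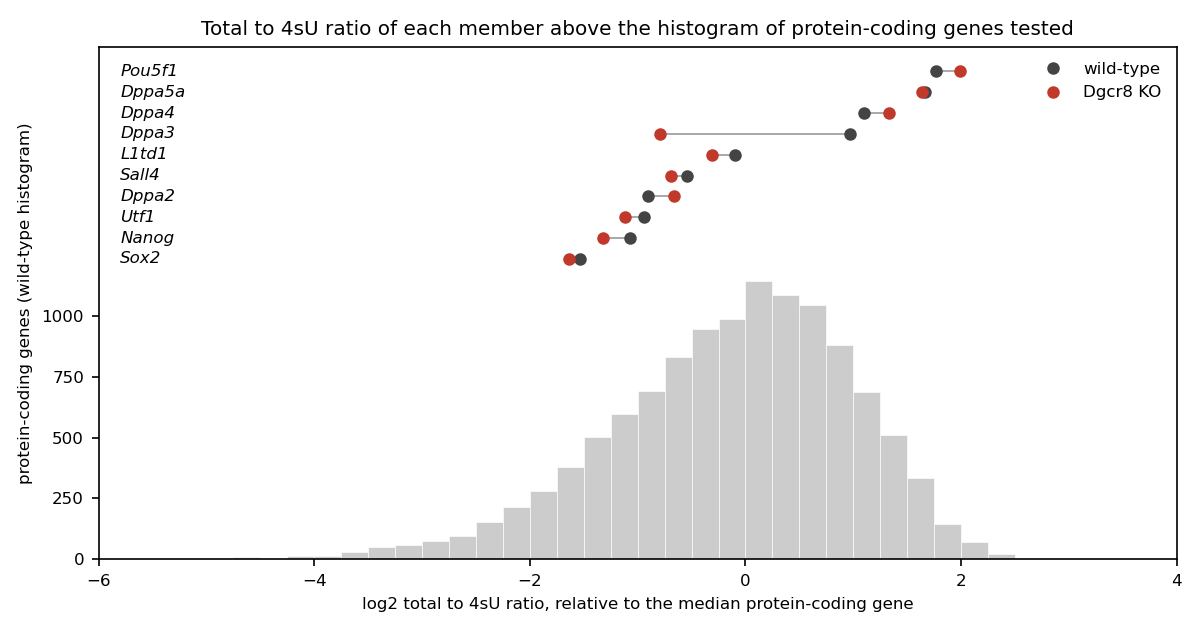
Grey bars count protein-coding genes by their log2 total to 4sU ratio in wild-type cells, relative to the median gene (horizontal axis, log2). Points above the bars place each member in wild-type (dark) and Dgcr8 KO (red) cells at arbitrary heights, from Sox2 at -1.53 to Pou5f1 at 1.77 in wild-type cells.

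For stability, 4 members fell in Dgcr8 KO cells, 0 rose and 6 did not pass, against 11.1% of all genes lower and 5.02% higher. None met the study's rule by limma, which 1.76% of genes met, although Dppa3 did once the fractions of each culture were paired (-1.93, adjusted p = 0.034). Without that fold limit, 4 members passed an adjusted p under 0.05 by limma and 3 by edgeR, and 6 had an unadjusted p under 0.05. The median change was -0.22 for the members and -0.09 for all genes tested. Nanog had the firmest fall: its culture ratios went from -1.12, -1.0 and -1.10 to -1.40, -1.33 and -1.23 relative to the median gene, and the interaction was -0.34 (SE 0.06, limma adjusted p = 1.9e-04). L1td1 followed at -0.30 (SE 0.06, adjusted p = 0.0011), with ratios of -0.14, -0.13 and -0.04 against -0.36, -0.26 and -0.31. Both passed under all alternatives tried, with adjusted p up to 0.0065 for Nanog and 0.032 for L1td1.

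Sall4 (-0.24, SE 0.07, limma adjusted p = 0.017) and Sox2 (-0.19, SE 0.06, adjusted p = 0.032) passed less firmly. With RLE factors in place of TMM they were -0.15 and -0.10 and neither passed (adjusted p = 0.166 and 0.352), nor did they relative to the median change of all genes (0.177 and 0.33). Neither passed with DESeq2 (0.182 and 0.394), upper-quartile factors (0.0996 and 0.207) or no filter beyond 1 count (0.0533 and 0.0993). With edgeR Sall4 passed (0.0323) and Sox2 did not (0.0941). Without KO replicate 2 Sall4 had an adjusted p of 0.083. Sox2 lost its call without wild-type replicate 1 or 2 or KO replicate 1 or 2 (0.071 to 0.128). Pou5f1 was at 0.12 (95% interval -0.02 to 0.27, adjusted p = 0.25) and passed only with RLE factors (0.21, adjusted p = 0.044), with DESeq2 (0.21, adjusted p = 0.036) and relative to the median change (0.22, adjusted p = 0.035). Utf1, Dppa2, Dppa4 and Dppa5a had changes of -0.27, 0.15, 0.14 and -0.12, with adjusted p of 0.15, 0.34, 0.62 and 0.29, and Utf1 passed only without wild-type replicate 2 (-0.42, adjusted p = 0.023).

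The stability of Dppa3 could hardly be read, because its KO ratio rested on 9 counts in each fraction. The KO culture ratios ranged from -2.36 to 0.98. The interaction was -1.85 (SE 0.67, limma adjusted p = 0.056). That of the replicate block by culture is given above. Without KO replicate 3 it was -2.59 (adjusted p = 0.015), without KO replicate 2 it was -1.26 (0.309) and without KO replicate 1 it was -1.78 (0.189).

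The surroundings of Dppa3 were examined because it lies in a cluster with other members of the ESC programme on chromosome 6. Dppa3 (mm10, chr6:122626410-122630272, plus strand) starts 81079 bases before Nanog (chr6:122707489-122714633, plus strand). The other genes tested within 100 kb of Dppa3 did not show a fall of that size. Gdf3, which encodes a TGF-beta ligand of ESCs and lies 16323 bases from Dppa3, rose by 0.33 in total RNA (SE 0.05, limma adjusted p = 3.2e-06) and by 0.38 in nascent RNA. Apobec1, an RNA-editing enzyme gene, had changes of 0.24 (adjusted p = 0.057) and 0.35 (adjusted p = 0.012). Slc2a3, which encodes a glucose transporter and lies beyond Nanog, fell by 0.90 in total RNA (SE 0.04, adjusted p = 7.9e-19). Mfap5 did not pass in either fraction.

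**Figure D4:**
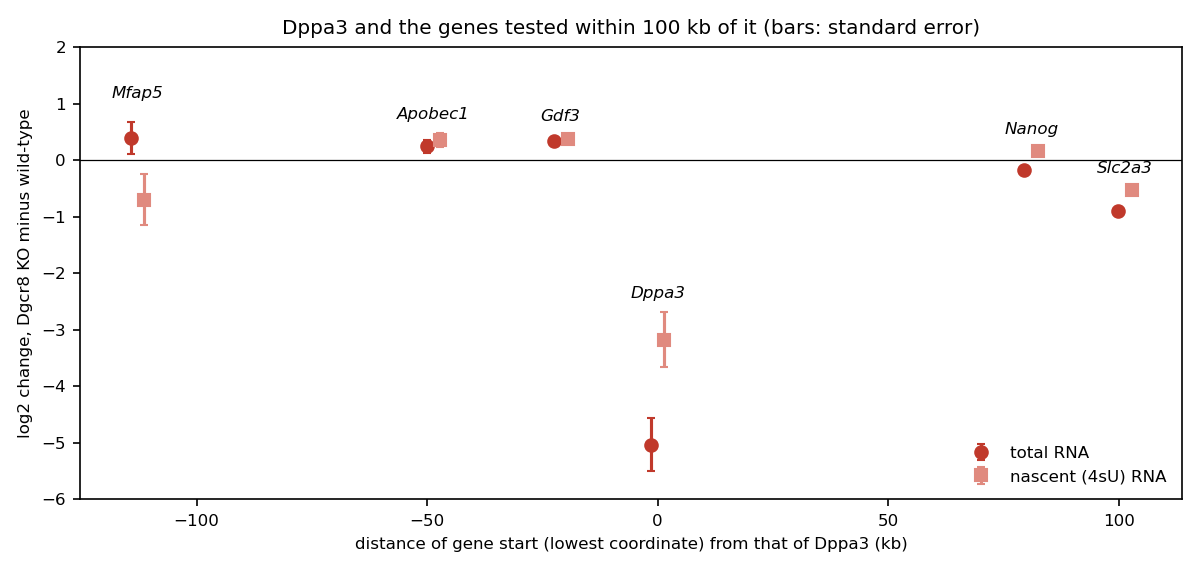
Log2 change in Dgcr8 KO minus wild-type cells (vertical axis, bars are SE) of Dppa3 and of the 5 genes tested within 100 kb, against the distance of each gene's lowest coordinate from that of Dppa3 in kb. Dppa3 stands at -5.03 in total and -3.18 in nascent RNA, and the total changes of its neighbours run from -0.90 to 0.39.

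Over all members, 24 other genes tested lay within 100 kb. Of these, 5 were higher and 8 lower in total RNA at an adjusted p under 0.05, beside 27.2% and 36.7% of all genes tested. The study's rule called 2 in each direction, and it called 17.2% of all genes tested. The called ones were Kndc1 beside Utf1 (log2 change 2.13), Patj beside L1td1 (1.31), Kank4os, also near L1td1 (-1.54), and 2300002M23Rik, 56678 bases from Pou5f1 (-4.66). Kndc1 passed the filter through KO libraries alone and 2300002M23Rik through wild-type libraries alone, so these 2 had to differ. Tcf19, whose gap to Pou5f1 was 1962 bases, fell by 0.76 in total RNA (adjusted p = 3.0e-04) and rose by 0.59 in nascent RNA (adjusted p = 0.0075).

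Other factors of the ESC network were taken from a list of 20, all of which were tested. In total RNA 5 rose, 10 fell and 5 did not pass, beside 27.2% higher and 36.7% lower over all genes tested. The median change was -0.16, beside -0.09 over all genes. In nascent RNA 9 rose and 7 fell, beside 28.3% and 28.0% of all genes tested, and in stability 0 rose and 8 fell, beside 5.02% and 11.1%. Klf2, which encodes a naive-state transcription factor downstream of MEK inhibition, was called higher: its log2 change was 1.47 in total RNA (limma adjusted p = 1.3e-17). Tcl1, which encodes an activator of AKT signalling, was called lower (-2.05, adjusted p = 3.8e-19). Lin28a, which encodes a blocker of let-7 maturation, was called lower and was at 668 to 964 counts in wild-type against 1 to 9 in KO total libraries. Lin28a, like Dppa3, passed the filter through wild-type libraries alone. Stat3, Nr0b1 and Fgf4 had changes between -0.02 and 0.00 and did not pass.

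Of 13 paralogues of the members listed, 11 were tested, and Sox3 and Dppa1 were too low. Of the POU family, Pou2f1 rose by 0.59 (limma adjusted p = 2.6e-10), while Pou2f3 and Pou3f1 fell, by 3.54 and 2.42, from 148 to 224 and 29 to 56 counts to 11 to 17 and 6 to 12. Of the SOX family, Sox21 fell by 1.44 (adjusted p = 2.5e-08), whereas Sox1 and Sox15 had changes of 0.24 and -0.21 and did not pass. Of the SALL family, Sall1 rose by 0.97 (adjusted p = 8.7e-17) and Sall3 by 1.24 (adjusted p = 5.9e-11), both against the direction of Sall4. Khdc3, a KH-domain relative of Dppa5a, went from 170 to 230 counts to 5 to 11 (log2 change -4.80, adjusted p = 4.9e-14). Ooep, 7932 bases from Dppa5a, was at 139 CPM in total RNA of both genotypes. Khdc3, Pou2f3 and Pou3f1 passed the filter through wild-type libraries alone.

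DPPA2 and DPPA4 are known as activators of Dux and, through it, of genes of the 2-cell embryo. Of 18 such genes listed, 16 were tested, and 14 of them passed the filter only through KO libraries and so had to differ. The other 2 were Zscan4a, with 41 to 44 counts in wild-type and 245 to 293 in KO total libraries (log2 change 2.63, limma adjusted p = 7.3e-16), and Zscan4d, with 18 to 36 and 217 to 283 (3.37, adjusted p = 6.3e-15). The summed level of the 18 genes was 18.9 to 22.2 CPM in wild-type and 132 to 147 CPM in KO total RNA, and 21.1 to 23.4 and 138 to 156 CPM in nascent RNA. Duxf3, the mouse Dux gene, had 2 to 4 counts in wild-type and 6 to 9 in KO total libraries. In the 4sU libraries it had 0 to 3 and 21 to 28 counts. The Zscan4, Usp17l and Dux genes are families of near-identical copies, so their shares of uniquely mapped reads are uncertain. Dppa2 rose in the same cells and Dppa4 did not pass, as given above.

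**Figure D5:**
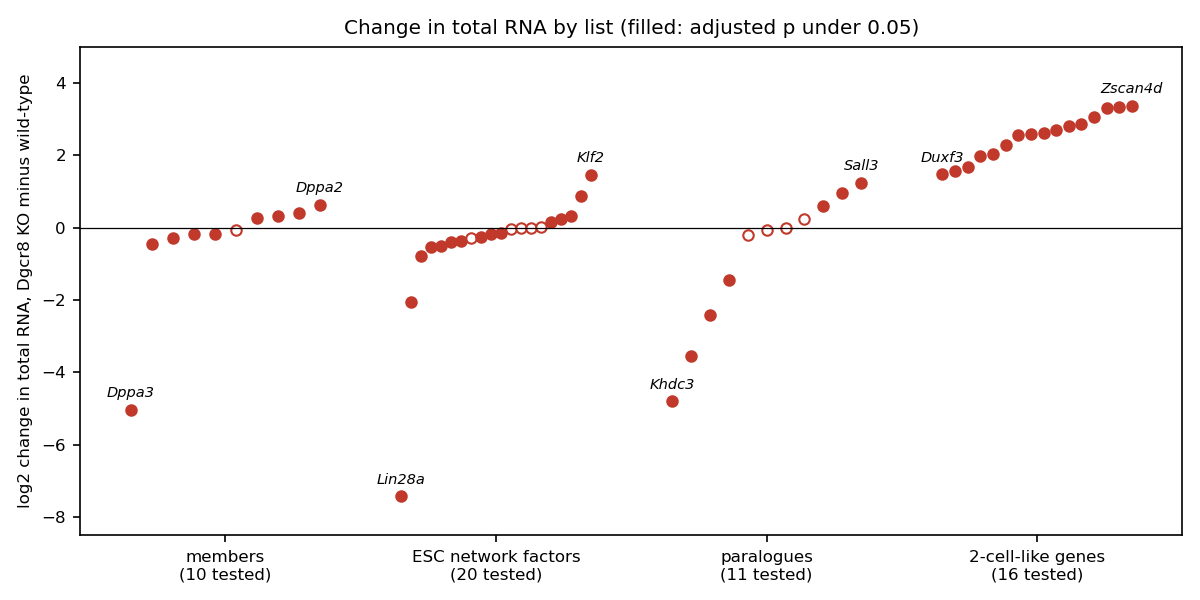
Log2 change in total RNA, Dgcr8 KO minus wild-type (vertical axis), for the 10 members and for each tested gene of the 3 related lists, sorted within each list, with the lowest and highest gene named. Filled points passed an adjusted p under 0.05; members run from -5.03 (Dppa3) to 0.63 (Dppa2), network factors from -7.43 (Lin28a) to 1.47 (Klf2).

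The genes whose log2 CPM (with 0.5 added) most resembled that of Pou5f1 over the 12 libraries were Ogdhl, Aplp2 and Calu, each with a Pearson r of 0.999. For Nanog, Mafg (0.996) and Amotl2 (0.995) were among the closest. These correlations were set largely by the difference between total and 4sU libraries that all 12 share, and are given as descriptions.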

How the data were processed

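The authors deposited raw counts of reads for each gene in each of the 12 libraries, with no normalization. Per the labels and the file header, adapters were trimmed with cutadapt 1.14, single-end reads of 50 bases were mapped to mm10 with STAR 2.5.3a, and unique reads were counted with featureCounts 1.5.3 on the reverse strand (setting 2). A row set of 92 ERCC spike-ins held 1 count in all and was left out. Of 51559 gene identifiers, 51274 matched GENCODE M21 symbols.

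As in the study's methods, a gene entered the fit if 3 or more libraries reached 3 CPM. These genes were fitted with limma 3.58.1 (voom weights, TMM factors from edgeR 4.0.16, R 4.3.3) by library type, genotype and their interaction, with Benjamini-Hochberg adjustment over 14033 genes. edgeR's quasi-likelihood test, DESeq2 1.42.0, other scalings and filters, and fits without each culture were alternatives. The fit was tested on simulated data. The chi-square per degree of freedom between replicate libraries, which grows with spread beyond counting error, was uneven. It was 3.73 to 5.61 in wild-type 4sU and 1.79 to 2.50 in wild-type total libraries. In KO libraries it was 1.79 to 3.17 and 1.59 to 1.66. The single model shared its estimate of spread over the fractions, and the effect of this on nascent and interaction calls was not tested. TPM used the deposited exon lengths. Intervals are at 95%, and those on counts cover counting error only, since reads carried no molecular identifiers.

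Groups and replicate numbers came from the sample titles. Deviations of same-numbered wild-type and KO libraries had r of 0.00557, -0.000295 and 0.0198 in total RNA. In 4sU libraries r was -0.0894, 0.082 and -0.015. Fractions of 1 culture correlated as weakly as 0.0184, so these values cannot decide whether the numbers pair cultures. The main fit used no pairing. The 4sU and total fractions of a number come from 1 RNA sample per the labels, and their deviations correlated weakly (r 0.0184 to 0.117).

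All 10 members are described. From each list the genes named were those called in total RNA or with the largest and smallest changes, and some others for their family or place, chosen after their values were seen. The members and lists were chosen with earlier results of these data known. One gene that the rule on likeness to Nanog would name is not reported here.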

Additional observations from a re-analysis of the deposited data

Results flagged for a closer look

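In 4 members the Dgcr8 KO effect differed between the 2 RNA fractions in the main fit (interaction term of limma, adjusted p under 0.05), all with lower stability. Over all genes tested, 11.1% passed as lower and 5.02% as higher. The differences, total minus nascent on the log2 scale, were -0.34 for Nanog, -0.30 for L1td1, -0.24 for Sall4 and -0.19 for Sox2. That of Sox2 no longer passed in 10 of 16 alternatives and that of Sall4 in 6. Nanog and L1td1 had changes below 0 in total and above 0 in nascent RNA, not all of which passed under every scaling, Sall4 was lower in both, and Sox2 was higher in both. With 3 libraries in each group, no search for single outlying libraries was made.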

How the results depend on the processing

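Requiring an absolute log2 change over 1 left 1 member in total RNA, 1 in nascent RNA and 0 in stability, from 9, 9 and 4 at an adjusted p under 0.05 alone. The stability count was 2 with upper-quartile factors and 2 with no filter beyond 1 count, and 2 to 5 over fits without 1 culture. The nascent count was 6 with DESeq2, 7 each with edgeR, RLE and upper-quartile factors, and 6 to 8 over fits without 1 culture. With a replicate block by number the counts were 9, 9 and 5, and with a block by culture the stability count was 5; each block added Dppa3 in stability, also past an absolute log2 change of 1, and changed no other call. Dppa4 reversed in total RNA, to 0.0333, when changes were taken relative to the median change. The median wild-type ratio percentile of the members was 49.8 with no filter beyond 1 count, 28.4 with 3 CPM in all libraries (where Dppa3 drops out) and 47.4 among all genes tested, and 39.0 to 40.0 without 1 culture. The median level percentile was 97.6 on CPM without division by length. In total RNA the other 9 members kept their direction under every alternative in which they could be fitted, and 7 of them their side of the threshold; relative to the median change, tested against that median, Nanog (-0.09, adjusted p = 0.088) and L1td1 (-0.08, 0.10) did not pass. Of 457 values of single members under 16 alternatives, 408 were on the same side with the same direction, 41 were no longer past the threshold, 7 were newly past it and 1 reversed; the causes were not tested. TMM scaling placed the median stability change of all genes at -0.09 and RLE at -0.00257, and calls on changes of 0.25 or less moved with it. Depth limits Dppa3, at 1 to 5 counts per KO library.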
